A study of Mus musculus with 4 samples.

Results

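Elastic fibres of the lung were followed through 10 genes: elastin (Eln), the fibulins Fbln1, Fbln2, Fbln5, Efemp1 and Efemp2, the emilins Emilin1 and Emilin2, and the microfibril-associated proteins Mfap4 and Mfap5. They were chosen by gene symbol from an expression table of 23444 symbols, and each of the 10 had exactly 1 entry there. All 10 reached 1 FPKM (a level in mapped fragments that is corrected for gene length and library size) in some library, as did 12561 of the symbols in all.

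The libraries came from wild-type C57BL6 mice, from lung cells that the submitters sorted as Pdgfra+ fibroblasts, at embryonic days 16.5 (E16.5) and 18.5 (E18.5) and postnatal days 7 (P7) and 28 (P28). No allele, transgene or treatment distinguishes the groups; they differ in age. There was 1 library per age, and Pdgfra is the surface receptor that defined the sort. How many animals were pooled for a library is not stated in the labels. Every difference below is therefore a difference between 2 libraries, with no spread between animals to set it against, no error on any value and no p-value.

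Elastic fibres let the lung stretch and recoil. They form outside the cell when tropoelastin, the soluble product of Eln, is gathered, laid on a scaffold of fibrillin microfibrils and cross-linked by lysyl oxidases. Fibulins and emilins bind tropoelastin, fibrillin or both during this assembly, and in the mouse lung much elastin is made by the interstitial myofibroblasts of the forming alveolar septa.

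On the GRCm38 genome with the GENCODE M21 annotation, all 10 are protein-coding genes. Eln lies on chromosome 5 from 134702593 to 134747323 on the minus strand, and Emilin1 on the same chromosome from 30913402 to 30921277 on the plus strand. Mfap4 (61485431 to 61488900, plus) and Efemp1 (28853204 to 28926743, plus) are both on chromosome 11. Fbln2 (91212455 to 91272540, plus) and Mfap5 (122505845 to 122529290, plus) are both on chromosome 6. Fbln5 is on chromosome 12 (101746565 to 101819055, minus), Fbln1 on chromosome 15 (85205949 to 85286535, plus), Emilin2 on chromosome 17 (71252172 to 71311978, minus) and Efemp2 on chromosome 19 (5473954 to 5482517, plus). Exons of 3 of them overlap exons of a gene on the other strand, and whether fragments were assigned by strand is not stated. Eln shares 267 bases with the antisense gene Gm30003, which has no entry in the table. Efemp2 shares 173 bases with Mus81, which stood between 0.808 and 1.16 FPKM. Mfap4 shares 89 bases with Mapk7, which stood between 2.18 and 6.15 FPKM, far below Mfap4 itself.

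Promoter windows from RefSeq, which run from 250 bases before to 50 after a start site on GRCm38.p6, matched 7 of the 10 genes, with 12 windows in all; Eln, Mfap4 and Mfap5 had no match. For the 4 matched genes whose levels ranged most widely over the ages, the window nearest the GENCODE start is printed here 5′ to 3′ on the strand of the gene (Fbln5 and Emilin2 each have 1 further window, not printed): Fbln5 (chr12:101819070-101819369, minus) and Fbln2 (chr6:91212514-91212813, plus), both highest at P7, Efemp1 (chr11:28852955-28853254, plus), highest at P28, and Emilin2 (chr17:71311507-71311806, minus), highest at E16.5. Capitals mark matches on either strand to the GC box GGGCGG, the AP-1 letters TGANTCA and the CCAAT box.
Fbln5: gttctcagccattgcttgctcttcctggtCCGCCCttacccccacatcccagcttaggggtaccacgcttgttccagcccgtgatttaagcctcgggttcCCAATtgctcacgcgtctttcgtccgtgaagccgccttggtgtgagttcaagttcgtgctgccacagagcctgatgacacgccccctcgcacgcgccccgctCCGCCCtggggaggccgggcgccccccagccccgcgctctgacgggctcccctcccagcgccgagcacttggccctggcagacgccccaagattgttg
Fbln2: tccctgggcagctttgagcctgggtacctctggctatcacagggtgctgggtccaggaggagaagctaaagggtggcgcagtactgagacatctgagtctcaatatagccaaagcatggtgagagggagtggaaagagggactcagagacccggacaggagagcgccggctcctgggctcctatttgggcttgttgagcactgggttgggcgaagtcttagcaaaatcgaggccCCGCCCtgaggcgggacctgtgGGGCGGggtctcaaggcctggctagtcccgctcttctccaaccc
Efemp1: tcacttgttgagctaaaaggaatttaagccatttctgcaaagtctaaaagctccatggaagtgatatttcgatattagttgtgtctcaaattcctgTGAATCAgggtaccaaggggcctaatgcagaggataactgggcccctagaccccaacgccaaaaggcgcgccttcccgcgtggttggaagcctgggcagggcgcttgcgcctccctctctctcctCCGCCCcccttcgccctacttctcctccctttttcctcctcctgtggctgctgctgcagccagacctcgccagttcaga
Emilin2: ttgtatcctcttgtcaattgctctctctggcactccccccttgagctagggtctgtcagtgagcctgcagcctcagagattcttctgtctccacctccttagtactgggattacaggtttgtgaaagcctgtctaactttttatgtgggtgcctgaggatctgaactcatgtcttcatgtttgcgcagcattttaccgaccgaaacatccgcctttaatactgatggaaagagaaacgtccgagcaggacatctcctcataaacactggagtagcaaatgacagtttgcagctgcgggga

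The GC box was found in 8 of the 12 windows, against 35.7% of all 32851 windows in the RefSeq table. The Fbln5, Fbln2 and Efemp1 windows above each hold it, and the printed Emilin2 window holds none of the 3 marked motifs, while the unprinted one holds 2 GC boxes. The AP-1 letters were found in 1 of the 12 windows, that of Efemp1, against 7.81% of all windows. CCAAT was found in 2 (37.4% of all), the Smad letters CAGACA in 4 (21.04%), the E-box CANNTG in 7 (72.3%) and TATAAA in 0 (13.6%), each searched on both strands. In Fbln5 an E-box match, left unmarked, overlaps the CCAAT box. The motifs did not follow the age of highest level: the printed windows of Fbln2 and Fbln5 (P7) and of Efemp1 (P28) each hold a GC box and an E-box, the Emilin1 window (P7) has no GC box, and the unprinted Fbln5 window has neither. Several windows belong to one gene and overlap, so they are not independent, and a match describes letters only.

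The 4 libraries were not on one scale. Of the 7930 genes at 1 FPKM or more in every library, 94.3% were lower at E18.5 than the mean of the other 3 ages, and the median-ratio scaling factors were 1.15, 0.581, 1.38 and 1.08 in order of age. Values are given as deposited and, where it matters, after division by these factors ("scaled"); ratios of genes within a library and ranks do not depend on the choice. Judged by the steps between low values, the E16.5 library was 1.39 times as deep as E18.5, and its depth relative to P7 and P28 was 0.949 and 1.05. These are rough estimates, each the commonest ratio between low values. That ratio was shared by 72 of 981 genes for E18.5, 134 of 1070 for P7 and 107 of 852 for P28. Pdgfra, the sorted receptor, was at 88.7, 95.9, 113 and 188 FPKM in order of age. All 8 general fibroblast markers, Pdgfra among them, were above 0 at every age, with sums of 1570.4, 896, 2819 and 3456 FPKM. In RNA from sorted cells, fewer cells of a type and less RNA per cell cannot be told apart.

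**Figure D1:**
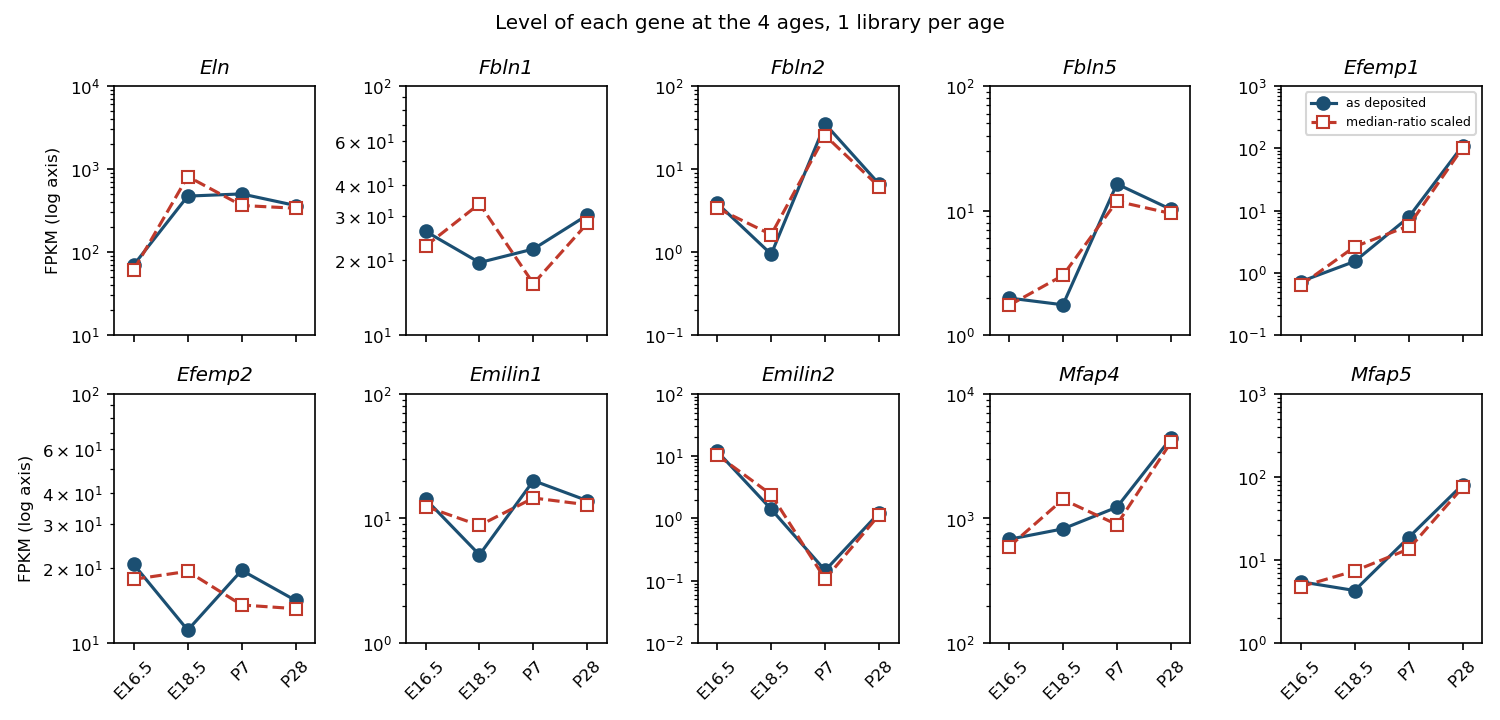
Level of each of the 10 genes in FPKM (log axes, with a range of its own in each panel) against age, 1 library per age. Filled circles are deposited values and open squares values after median-ratio scaling. Eln steps up between E16.5 and E18.5, Fbln2 and Fbln5 peak at P7, Efemp1, Mfap4 and Mfap5 peak at P28, Emilin2 is highest at E16.5, and for Eln, Fbln1, Efemp2 and Mfap4 the scale decides which of E18.5 and P7 is higher.

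Elastin, the elastic core of the fibre, was lower at E16.5 than at each later age, though already an abundant transcript there. Its levels were 69.9, 472, 501 and 364 FPKM from the youngest to the oldest library, and the corresponding scaled values were 61.0, 813, 364 and 337. The 3 later libraries all stood above the E16.5 library on both scales. From E16.5 to E18.5 the level was 6.75-fold higher as deposited and 13.3-fold higher after scaling, with log2 differences of 2.74 and 3.71 on the log2(FPKM + 1) scale used throughout. That difference exceeded those of 99.3% and 99.4% of the genes compared. Eln was the 366th most abundant gene at first, then the 16th, the 26th and the 57th, so its place among the other transcripts was highest at E18.5.

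Whether Eln was higher at P7 or at E18.5 depended on the scale. The deposited values differed by 0.09 in favour of P7, while the scaled values differed by -1.16, past the 2-fold threshold, in favour of E18.5. Ratios within a library do not depend on the scale, though they depend on the gene that Eln is set against. The ratio of Eln to Pdgfra was 0.788, 4.92, 4.44 and 1.94 in order of age. Relative to Col1a1, the chain of the main fibrillar collagen, Eln stood at 0.257, 3.12, 1.20 and 0.655. Relative to Fbn1, the fibrillin that forms the microfibril, it stood at 0.748, 5.79, 2.90 and 1.97. In all 3 ratios E18.5 was the highest age and E16.5 the lowest. The ratio of Eln to Mfap4, given below, was also highest at E18.5. Relative to Lox the order was the opposite, with ratios of 6.05 at E18.5 and 32.0 at P7. The deposited decline of Eln from P7 to P28 was 1.38-fold (1.08-fold after scaling), below the 2-fold threshold.

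**Figure D2:**
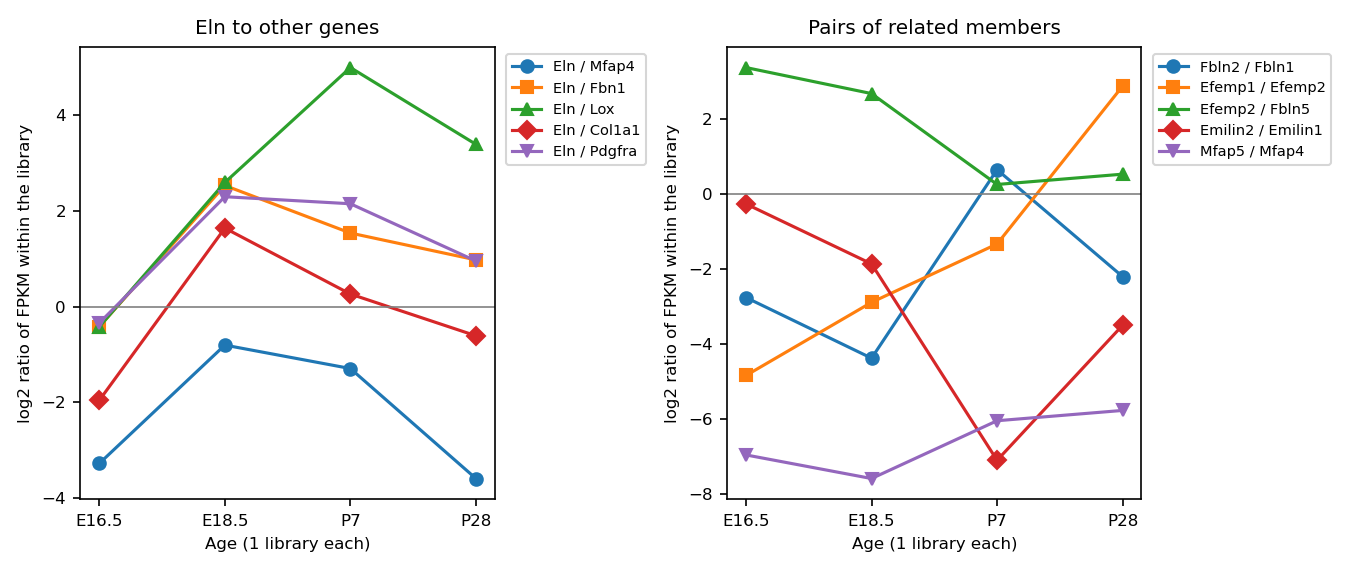
Log2 ratio of the FPKM of 2 genes within the same library, by age (1 library each, 0 marks equal levels). Left, Eln relative to Mfap4, Fbn1, Lox, Col1a1 and Pdgfra: all but the ratio to Lox peak at E18.5, while the ratio to Lox peaks at P7. Right, pairs of related genes: Efemp1 passes Efemp2 at P28, Fbln2 passes Fbln1 at P7 only, and Emilin2 is furthest below Emilin1 at P7.

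Mfap4, a fibrinogen-domain glycoprotein that binds tropoelastin and fibrillin, was the most abundant of the 10 in every library. From E16.5 onwards its level was 680.1, 825, 1231 and 4399.8 FPKM. It ranked 18th, 4th, 2nd and 4th among all transcripts in order of age. By itself it made up 1.998% of the summed FPKM at P28, against 0.378% at E16.5. The P28 value was 6.47-fold that at E16.5 and 3.57-fold that at P7, and P28 was the highest of the 4 libraries on both scales. Between the earlier ages the scale mattered: the scaled values were 593, 1421, 894 and 4078, so that E18.5 exceeded P7 after scaling and P7 exceeded E18.5 as deposited.

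Since Mfap4 and Eln are both abundant, their ratio is well placed for a comparison that no scaling touches. The ratio of Eln to Mfap4 was 0.103, 0.572, 0.407 and 0.0826 in order of age. The first and the last libraries thus had the lowest ratios, although Eln itself was 5.20-fold higher at P28 than at E16.5.

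Mfap5 (microfibril-associated glycoprotein), which binds fibrillin and is built into microfibrils, followed Mfap4 in being highest at P28 but was far less abundant. The 4 libraries gave 5.47, 4.29, 18.6 and 80.6 FPKM in order of age. The P28 library stood 14.7-fold above E16.5 and 4.32-fold above P7. Mfap4 exceeded Mfap5 by 124-fold and 192-fold in the embryonic libraries and by 66.1-fold and 54.6-fold in the postnatal ones, so the gap between the pair was narrower in both postnatal libraries than in both embryonic ones.

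The fibulins with a known part in elastic fibre assembly moved differently from each other. Fbln5, which tethers tropoelastin to microfibrils and to Loxl1, stood at 1.98, 1.75, 16.3 and 10.2 FPKM in order of age. Both postnatal libraries were above both embryonic ones on either scale (scaled values 1.73, 3.01, 11.9 and 9.48). P7 exceeded E18.5 by 9.34-fold as deposited and 3.94-fold after scaling, whereas Eln had already reached its high level at E18.5. Efemp2, also called fibulin-4, which brings lysyl oxidase to tropoelastin, was at 20.7, 11.3, 19.6 and 14.8 FPKM. Its highest and lowest libraries were 1.84-fold apart as deposited and 1.41-fold apart after scaling, and it did not pass the 2-fold threshold in any comparison on either scale. Efemp2 exceeded Fbln5 at every age, by a margin that was widest at E16.5 and narrowest at P7, as the plot of log2 ratios shows.

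Fbln1, a fibulin of basement membranes and elastic fibres, was also among the steadiest of the genes, at 26.1, 19.5, 22.2 and 30.3 FPKM. The scaled values were 22.8, 33.7, 16.1 and 28.1, and 1 comparison passed the threshold on that scale only: P7 was 2.09-fold below E18.5. Emilin1 was the other gene with a narrow scaled range, so Fbln1, Efemp2 and Emilin1 were the 3 genes within 2.5-fold between highest and lowest scaled library, against over 5-fold in the other 7.

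Fbln2, a long fibulin that binds basement membrane proteins, fibronectin and elastin, had the sharpest peak at P7. It was measured at 3.86, 0.941, 34.9 and 6.60 FPKM, youngest library first. The P7 library stood 37.1-fold above E18.5 (15.6-fold after scaling), 9.04-fold above E16.5 and 5.28-fold above P28. The E18.5 value lies under 1 FPKM, so the first of these folds is the least certain. Fbln2 exceeded Fbln1 at P7, with a ratio of 1.58, and was below it at E16.5 (0.148), E18.5 (0.0482) and P28 (0.218).

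The P7 library also had the highest level of all 9 endothelial markers on both scales, and none of them was at 0 in any library. Their summed FPKM was 19.8 and 27.2 in the embryonic libraries, 903 at P7 and 221 at P28. The smooth muscle list was highest at P7 as well, at 314, 139, 513 and 31.0 FPKM, with 7 of 7 genes highest there as deposited and 5 of 7 after scaling. The alveolar myofibroblast list stood at 563, 587, 1368 and 214 FPKM, with 8 of 10 genes highest at P7 as deposited. After scaling 5 of its 10 genes were highest at E18.5 and 4 at P7, and its sum was 1010.4 at E18.5 and 993 at P7. Fbln2 and the endothelial sum were both highest at P7 and second at P28, but Fbln2 was higher at E16.5 than at E18.5 and the endothelial sum was lower. The part of these cells in the Fbln2 and Fbln5 values was not tested.

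Efemp1, also called fibulin-3, a short fibulin of fascia and connective tissue, had the widest range of the fibulins. Its 4 values were 0.723, 1.52, 7.80 and 109.6 FPKM in order of age. Each library was above the one before it on both scales (scaled values 0.630, 2.62, 5.66 and 101.5). P28 exceeded P7 by 14.0-fold as deposited and 17.9-fold after scaling, with log2 differences of 3.65 and 3.94. Relative to its close relative Efemp2, Efemp1 stood at 0.035, 0.135, 0.398 and 7.39 in order of age, so the order of the pair was the opposite at P28.

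The make-up of the 5 fibulins differed between ages as a result. At E16.5, Fbln1 made up 48.9% of the summed FPKM of the 5 fibulins and Efemp2 38.7%. At E18.5 the same genes led, at 55.8% and 32.2%. At P7, Fbln2 led with 34.6%, followed by Fbln1 with 22.0%, Efemp2 with 19.4%, Fbln5 with 16.2% and Efemp1 with 7.74%. At P28, Efemp1 alone made up 63.9%, and Fbln1 followed with 17.7%. Thus 3 of these 5 fibulins led at one age or another, and Fbln5 did not lead at any. Fbln7 and the fibulin-related Hmcn1 were not counted, and Hmcn1 was above Fbln2 at P7 (43.6 and 34.9 FPKM). These shares are proportions of FPKM, which is corrected for gene length, and they do not depend on library scaling.

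**Figure D3:**
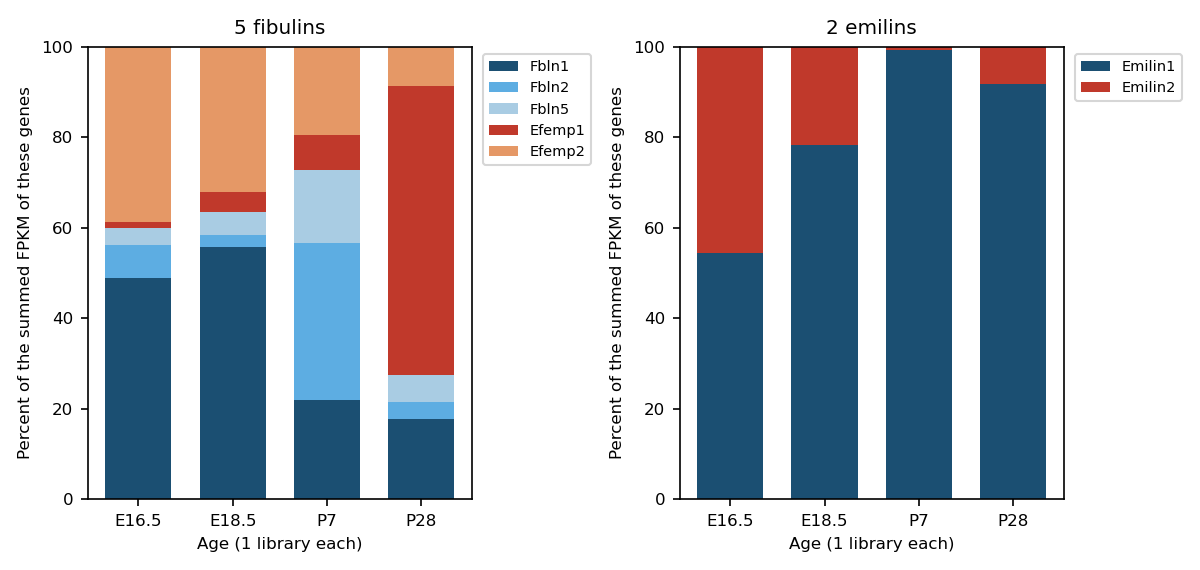
Share of each gene in the summed FPKM of the 5 fibulins (left) and the 2 emilins (right) in each library, in percent, 1 library per age. Fbln1 and Efemp2 fill most of the embryonic bars, Fbln2 is the largest part at P7 with 34.6%, and Efemp1 is the largest at P28 with 63.9%. Emilin2 falls from 45.5% of the emilin sum at E16.5 to 0.723% at P7.

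The P28 library, where Efemp1, Mfap4 and Mfap5 were highest, also had the highest sums of marker lists for several lung cell types, adventitial fibroblasts among them. All 6 mesothelial markers found in the table were highest there, with sums of 2.21, 11.8, 52.0 and 163 FPKM in order of age, and none was at 0 in any library. Of the 8 adventitial fibroblast markers, 7 were highest at P28 as deposited and 6 after scaling, with sums of 55.2, 58.6, 313 and 470.2 FPKM. The alveolar type 2 list (24.3, 109, 21.1 and 11873 FPKM) and the airway epithelial list (2.78, 30.7, 27.1 and 19574 FPKM) were far above the other libraries at P28, with 6 of 6 and 5 of 6 genes highest there as deposited (4 of 6 for airway after scaling). The alveolar type 1 list stood at 5.96, 11.8, 15.1 and 107 FPKM. Of the epithelial markers, Sftpd and Aqp5 were listed at 0 at E16.5, and Krt5 at every age but E18.5. The part of these cells in the P28 levels of Efemp1, Mfap4 and Mfap5 was not tested. The mesothelial and adventitial sums have the same order of ages as Efemp1 on both scales. Mfap4 has that order as deposited only, since its scaled value was higher at E18.5 (1421) than at P7 (894). Mfap5 has it after scaling only, since its deposited value was lower at E18.5 (4.29) than at E16.5 (5.47). The alveolar type 2 and airway sums were higher at E18.5 than at P7 on both scales, and the alveolar type 1 sum was so after scaling only (20.4 and 10.9).

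Emilin1, a glycoprotein found between the elastin core and its microfibrils, was at 14.3, 5.10, 20.1 and 13.9 FPKM in order of age. Its low E18.5 value shrank to a 1.66-fold difference between highest and lowest library after scaling (12.5, 8.79, 14.6 and 12.9). Emilin2, the second emilin, a secreted glycoprotein also known from the vessel wall and heart, was at 12.0, 1.41, 0.146 and 1.23 FPKM. It was highest at E16.5 and lowest at P7 on both scales, with a range of 81.6-fold as deposited and 98.0-fold after scaling; the P7 value is far below 1 FPKM, so the size of the range rests on a very low level. Of the summed FPKM of the 2 emilins, Emilin2 made up 45.5%, 21.6%, 0.723% and 8.13% in order of age.

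The E16.5 library was also the one with the most leukocyte RNA apart from Lyz2. The other 7 leukocyte markers found in the table were each highest at E16.5, with sums of 216, 10.2, 3.53 and 2.80 FPKM in order of age, and none was at 0 in any library. Lyz2, which type 2 cells also express, was at 955, 40.5, 15.0 and 5062 FPKM; it was set apart after its values were seen. Emilin2 and this leukocyte sum were both highest at E16.5 and second at E18.5, and Emilin2 was lower at P7 than at P28, whereas the leukocyte sum was higher at P7 as deposited and nearly level after scaling (2.56 and 2.60). The part of leukocyte RNA in the Emilin2 level was not tested. The erythroid list was highest at E18.5, at 487 FPKM against 5.88, 21.3 and 1.65 in the other libraries, and the pericyte list stood at 25.7, 35.3, 63.6 and 24.3 FPKM.

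**Figure D4:**
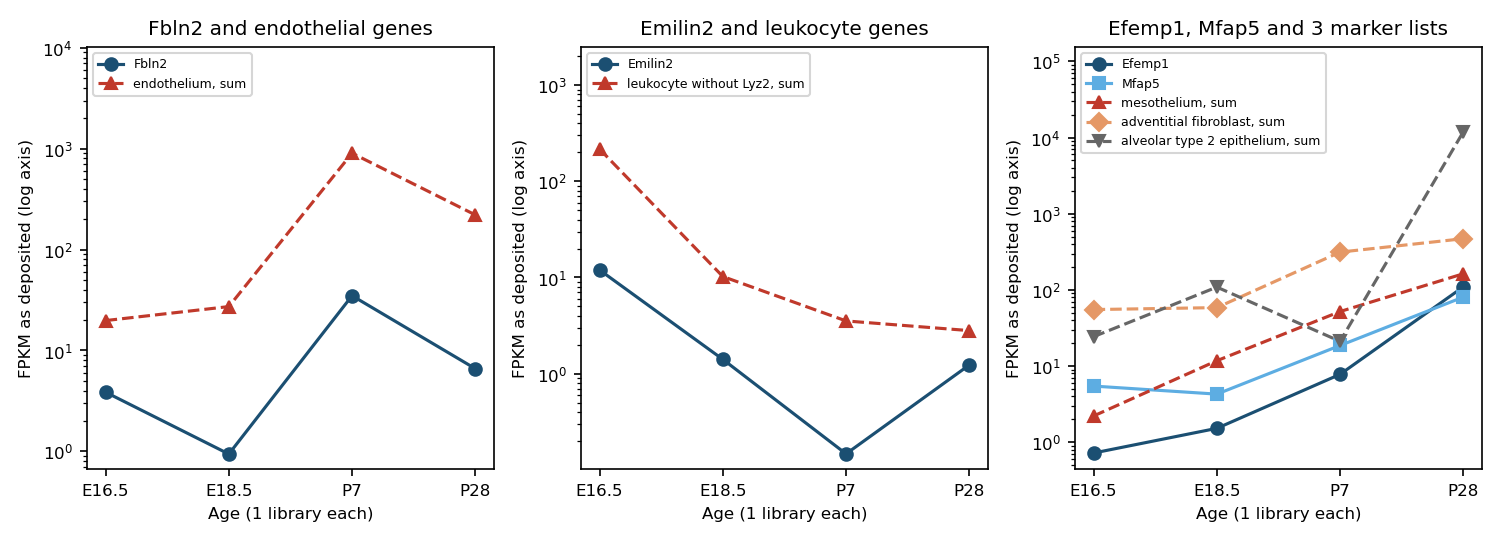
FPKM as deposited (log axes) by age, 1 library each: Fbln2 with the summed endothelial markers, Emilin2 with the summed leukocyte markers without Lyz2, and Efemp1 and Mfap5 with the summed mesothelial, adventitial fibroblast and alveolar type 2 markers. Fbln2 and the endothelial sum are highest at P7, Emilin2 and the leukocyte sum at E16.5, and Efemp1, Mfap5 and the 3 lists beside them at P28.

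For each pair of ages the genes were counted as higher or lower when they differed by at least 2-fold on the log2(FPKM + 1) scale with 5 FPKM or more in the higher library. The comparisons share libraries, so their counts are not independent. From E16.5 to E18.5, 7 of the 10 genes reached 5 FPKM as deposited. Of these, Eln was higher (2.32% of all genes tested were), and Emilin1 and Emilin2 were lower (47.4% of all were). The median difference of the 7 was -0.40, against -0.96 over all 5979 genes tested. After scaling, Eln and Mfap4 were higher (9.34% of all) and Emilin2 was lower (12.2% of all), with medians of 0.54 and -0.02. Eln and Emilin2 therefore stood on the same side on both scales, whereas the call of Emilin1 belonged to a library in which almost every second gene was called lower.

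Between E18.5 and P7, 5 of 9 genes were higher at P7 as deposited (Fbln2, Fbln5, Efemp1, Emilin1 and Mfap5) and 0 were lower. Over all genes the shares were 63.3% and 2.89%, so the count of 5 of 9 lies below the share of all genes. After scaling, 2 of 9 were higher (Fbln2 and Fbln5, against 14.7% of all) and 2 were lower (Eln and Fbln1, against 12% of all). Fbln2 and Fbln5 were higher on both scales, with differences above those of 99.1% and 94.3% of the genes tested as deposited.

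Between P7 and P28 both scales gave the same calls. Efemp1, Mfap4 and Mfap5 were higher at P28 and Fbln2 was lower, out of 9 genes tested. The shares of all genes were 10.5% higher and 16.9% lower as deposited, and 14.6% and 10.3% after scaling. The remaining 5 tested genes (Eln, Fbln1, Fbln5, Efemp2 and Emilin1) differed by less than 2-fold.

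Between E16.5 and P7 all 10 genes were tested. At P7, Eln, Fbln2, Fbln5, Efemp1 and Mfap5 were higher and Emilin2 was lower on both scales. Over all genes 15.7% were higher and 6.68% lower as deposited, and 12.3% and 9.62% after scaling. The median of the 10 genes was 1.23, against 0.23 over all genes, and 0.96 against -0.04 after scaling. At P28, compared with E16.5, Eln, Fbln5, Efemp1, Mfap4 and Mfap5 were higher and Emilin2 was lower on both scales. Over all genes 18% were higher and 16.9% lower as deposited, and 19.7% and 15% after scaling. The median of the 10 was 1.28 against -0.09, and 1.32 against 0.02 after scaling. Both of these comparisons rest on the same E16.5 library.

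**Figure D5:**
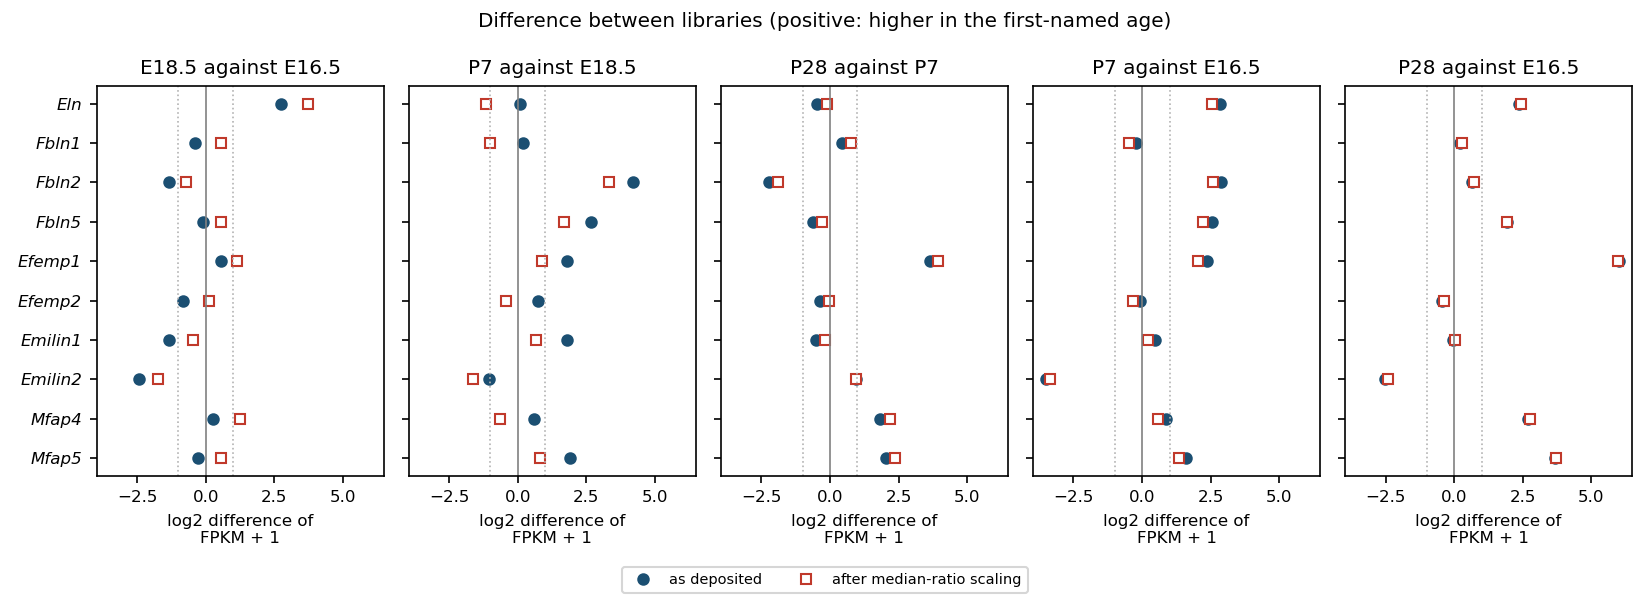
Difference of log2(FPKM + 1) between 2 libraries for each of the 10 genes in the 5 comparisons, positive where the first-named age is higher. Filled circles are deposited values, open squares are values after median-ratio scaling, and dotted lines mark 2-fold. The 2 scales lie apart in the comparisons with E18.5 and close together in the other 3.

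Together the 10 genes made up 0.464%, 1.34%, 0.962% and 2.28% of the summed FPKM of the successive libraries. Mfap4 and Eln supplied most of it at each age. Between the genes, the centred profiles after scaling were closest for Fbln1 and Efemp2 (Euclidean distance of 0.66 log2 units over the 4 ages), Efemp2 and Emilin1 (0.86), Fbln1 and Emilin1 (1.21), Mfap4 and Mfap5 (1.31), Fbln2 and Fbln5 (1.46), Fbln5 and Emilin1 (1.62), and Efemp1 and Mfap5 (1.67). The first 3 of these pairs join the genes with the narrowest ranges.

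Over the whole course the microfibril partners of elastin held no single direction. Fbn1, the main fibrillin, was at 93.5, 81.5, 173 and 185 FPKM in order of age (scaled values 81.5, 140, 125 and 171). Its order among E16.5, E18.5 and P7 thus depended on the scale. Fbn2, the fibrillin of early development, was at 32.5, 14.8, 14.0 and 0.436. Ltbp2 and Ltbp4 belong to the latent TGF-beta binding proteins, which sit on microfibrils and of which Ltbp4 takes part in elastic fibre assembly with Fbln5. Ltbp2 was at 14.4, 41.7, 122 and 5.90 FPKM, and Ltbp4 at 25.5, 43.9, 75.4 and 190.2. Scaled values of Ltbp4 were 22.2, 75.6, 54.8 and 176, with E18.5 above P7. Ltbp2 thus had its highest level at P7, as Fbln5 did, while Ltbp4 was highest at P28. Of the 7 genes of this list (Fbn1, Fbn2, Mfap2, Ltbp1, Ltbp2, Ltbp3 and Ltbp4), 2 were higher and 1 was lower at P7 than at E16.5 on both scales, and 2 were higher and 2 were lower at P28 than at P7 on both scales. As deposited, the shares over all genes were 15.7% higher and 6.68% lower in the first of these comparisons and 10.5% and 16.9% in the second. A list of 7 genes is too short to read these counts against those shares. Their median difference between E16.5 and P7 was 0.67 as deposited, against 0.23 over all genes.

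The lysyl oxidases that cross-link elastin changed their order with age. Lox was at 93.7, 78.0, 15.7 and 34.6 FPKM in order of age (scaled values 81.7, 134, 11.4 and 32.0). It was thus highest at E16.5 as deposited and at E18.5 after scaling. Loxl1, the partner of Fbln5, was at 2.51, 1.41, 15.9 and 36.1 FPKM, and Loxl2 at 21.3, 23.1, 95.9 and 19.6. Lox was lower and Loxl1, Loxl2 and Loxl3 were higher at P7 than at E16.5 on both scales, with 4 of the 5 genes tested (15.7% of all genes were higher and 6.68% lower as deposited) and a median of 1.72 as deposited, against the same 0.23. Loxl1 and Fbln5 shared the pattern of low embryonic and higher postnatal levels, but Loxl1 was highest at P28 and Fbln5 at P7. The ratio of Eln to Lox was 0.746, 6.05, 32.0 and 10.5, so that Eln and Lox were closest in level at E16.5.

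Of the relatives outside the 10 genes, Hmcn1, the long fibulin-related hemicentin, was at 8.89, 8.46, 43.6 and 20.7 FPKM and was the only one of them to reach 10 FPKM. Mmrn2, an endothelial member of the EMILIN family, was at 0.210, 0.301, 6.76 and 1.96 FPKM, with the same order of postnatal ages as Fbln2. Mmrn1 was at 0.311, 0.421, 5.46 and 3.47 FPKM. Emilin3 was at 1.84 FPKM at E16.5 and under 1 FPKM at each later age, and Fbln7 was between 0.395 and 2.29 FPKM. Emilin2 and Emilin3 were thus both highest at E16.5. At P7 against E16.5, all 3 tested genes of this list were higher as deposited (Hmcn1, Mmrn1 and Mmrn2), with a median of 2.30. Over all genes 15.7% were higher as deposited, with a median of 0.23. At P7 Mmrn1 and Mmrn2 were little above the 5 FPKM minimum, and after scaling both fell below it. The 1 gene tested after scaling, Hmcn1, was higher, against 12.3% of all genes.

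Other lists of the elastic fibre system were counted in the same way at P28 against E16.5, the 2 ends of the course, with the same counts on both scales unless stated. The medians below are of deposited values. Over all genes the median was -0.09, and 18% were higher and 16.9% lower as deposited, so that counts such as those of the integrins lie near the share over all genes. Among 5 ADAMTS-type proteins of microfibril assembly, 4 were higher (Adamts10, Adamts17, Adamtsl2 and Adamtsl4) and 0 lower, with a median of 1.85, and Adamts17, the most abundant, went from 10.2 FPKM to 52.7. Of 6 protease inhibitors of the matrix, 5 were tested and higher (median 1.67), among them Timp3, which binds to matrix, from 13.1 to 208 FPKM. Of 7 enzymes able to degrade elastin, 4 were tested (median 1.07): Ctsk and Ctsl were higher and Ctss, a cathepsin of macrophages, was lower, from 167 to 0.276 FPKM. Mmp12, the macrophage elastase, was under 1 FPKM in all 4 libraries. Of 9 integrin subunits, 7 were tested (median -0.18): Itga8 was higher, from 9.17 to 128 FPKM, and Itga4 and Itga5 were lower. The 3 genes of the elastin receptor complex had 2 tested and 0 past the threshold (median 0.08). Of the 5 fibrillar collagens, 2 were higher as deposited (median 0.91) and 3 after scaling, and the most abundant, Col3a1, went from 381 to 1034 FPKM. Ctss had its highest level at E16.5, where the leukocyte markers were highest too.

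Genes nearest in profile were sought by the distance between centred log2 values after scaling over the 4 libraries, among genes that reached 20 FPKM in some library. They are given for 4 of the 10, named by rule, and for Emilin2, added after its values were seen. The nearest genes of the steady genes were closer than any of those (Prkaca at 0.056 from Emilin1 and Pdia3 at 0.097 from Fbln1). Fbln5 had close neighbours: Angptl2 (distance 0.17), C1qtnf7 (0.20) and Cd200 (0.26), of 2668 candidates. Angptl2, a secreted angiopoietin-like protein, was at 8.95, 7.55, 50.9 and 34.3 FPKM. Fbln2 was nearest to Fam129a (0.19), Mfng (0.28) and Itga6 (0.42), of 2667. Mfng, a glycosyltransferase that modifies Notch, was at 1.22, 0.304, 20.8 and 3.35 FPKM. Mfap4 was nearest to Mrc2 (0.31), a collagen receptor, Dapk1 (0.36) and H6pd (0.36). Eln had no close neighbour by this measure: the nearest were Rpl34 (1.20), Hnrnpd (1.23) and Dst (1.23), and Hnrnpd was listed at 0 at E16.5. Genes near Emilin2 included Fam213a (0.25) and Mrc1 (0.66), a receptor of macrophages, which was at 22.4, 3.65, 1.75 and 1.69 FPKM. Each profile has only 4 points, and the distances are descriptions.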

How the data were processed

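RNA of Pdgfra+ sorted mouse lung fibroblasts was measured at 4 ages, with 1 library each. Per the labels' protocols, a QIAamp kit for circulating nucleic acid, Verso cDNA synthesis and Nextera XT library preparation came before paired-end sequencing. TopHat, TopHat2 2.0.9, GRCm38 and mm10 are named in the submitters' processing notes. The deposited table gives FPKM, made by the authors with software not given in the sources used here. It holds no counts, and depth is unknown beyond the relative depths estimated from steps between values below 0.1 FPKM.

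The 23931 entries were summed by symbol (258 symbols had several). Differences were taken on log2(FPKM + 1) and called at 2-fold with 5 FPKM in the higher library, for 5 pairs of ages, over all genes. No test was run, since each age has 1 library. Median-ratio scaling used genes that reached 1 FPKM in all 4 libraries. Alternatives were upper-quartile scaling, pseudocounts of 0.1 and 5, no minimum or 20 FPKM, 4-fold, and the largest entry of a symbol alone. The 10 genes and the 21 lists were chosen with earlier results of these data known. Genes named besides the 10 are Pdgfra, those of the microfibril, cross-linking and relative lists, the most abundant and the most changed of the other lists, and the 3 nearest in profile to Eln, Fbln5, Mfap4 and Fbln2. Mmp12, the neighbours of Emilin2, Emilin1 and Fbln1, and the integrins, ADAMTS proteins and inhibitors named beyond that were chosen after their values were seen. The listed markers Hmcn2, Muc16 and Adgre1 had no entry matched here. The calculation was tested on simulated data. Python 3.11.15, numpy 2.4.6, pandas 2.3.3 and matplotlib 3.10.9 were used. A result withheld for evaluations is not reported here.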

Additional observations from a re-analysis of the deposited data

How the results depend on the processing

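Of the 10 counts of genes past the threshold, a minimum of 20 FPKM moved 5 and each of the scalings moved 4, the latter all in comparisons with the E18.5 library. For E18.5 against E16.5, the 1 gene higher became 2 under median-ratio and under upper-quartile scaling, and the 2 lower became 1 under both scalings, with a pseudocount of 5 and at 4-fold, and 0 with a minimum of 20 FPKM. For P7 against E18.5, the 5 higher became 2 under both scalings, with a minimum of 20 FPKM and at 4-fold, and the 0 lower became 2 under both scalings and 1 (Emilin2) with no minimum. For P7 against E16.5, a minimum of 20 FPKM left 2 higher and 0 lower, and for P28 against E16.5 it left 0 lower, since fewer genes reach it. The other 63 counts stayed within 1.5 times the main count, and using the largest entry of a symbol alone moved none. The sign of the difference flipped with median-ratio scaling for Fbln1, Fbln5, Efemp2 and Mfap5 at E18.5 against E16.5, for Eln, Fbln1, Efemp2 and Mfap4 at P7 against E18.5, and for Emilin1 at P28 against E16.5; of these, Eln and Fbln1 were past the threshold on the scaled side. No paired analysis was possible because each age has 1 library. Depth per library is unknown, so values under 1 FPKM, among them Emilin2 at P7, Fbln2 at E18.5 and Efemp1 at E16.5, are the least certain.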
